A study of Mus musculus with 4 samples.

Results

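Imprinted growth genes are genes that the cell reads from one parental copy and that act on body growth. The 10 described here were H19, Igf2, Igf2r, Dlk1, Meg3, Peg3, Mest, Cdkn1c, Grb10 and Plagl1, found among the 32285 genes of each of the 4 libraries. They were chosen by their symbols, with earlier results of these data known, so the counts of members here only describe the data. In cultured fat-derived cells of the mouse, 8 of the 10 had their highest level in the inguinal stromal culture, and 9 of the 10 had their lowest level in the epididymal de-differentiated culture. Among the 18739 genes with more than 3 UMIs in every library, 18.8% were highest in the former and 21.6% lowest in the latter. For Igf2, counted in both, the intervals of the highest and of the lowest library overlapped with the next. The counts were 8 and 8 without cells that carried markers of other cell types, where Igf2 was no longer lowest there. They were 7 and 8 in cells with no cycling marker, that is with no UMI of 10 genes of dividing cells at 5000 UMIs a cell, where Peg3 and Cdkn1c left them. Cdkn1c and H19 differed most between cultures, with highest levels 19.02-fold and 26.9-fold above the lowest. Without cells with markers of other types these were 32.3-fold and 61.2-fold, the latter from 15 H19 UMIs in the lowest library. As a mean over cells in place of a sum, the counts were 7 and 8, with Igf2 in neither, and the H19 fold was 13.6.

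Imprinted genes carry methylation set in the egg or the sperm, so that the maternal or the paternal copy stays silent. As background, the growth-promoting members of this group are mostly read from the paternal copy (Igf2, Dlk1, Peg3, Mest and Plagl1), and the restraining members from the maternal copy (H19, Igf2r, Cdkn1c, Grb10 and Meg3). Many of them are high in the embryo and decline after birth, and Dlk1 is widely used as a marker of preadipocytes because it restrains their differentiation into fat cells. The libraries counted RNA from both copies together, so the parental origin of a read is not known here.

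The cells were primary cultures from chow-fed C57BL/6J male mice, not induced to differentiate, profiled by single cell RNA-sequencing with 1 library per group. De-differentiated fat (DFAT) cells arose from floating mature adipocytes held against the ceiling of a filled flask, and the stromal vascular fraction (SVF) cells of the same depots, rich in adipose stem and progenitor cells, were grown in parallel; each was made from inguinal white adipose tissue (iWAT, subcutaneous) and epididymal white adipose tissue (eWAT, visceral). The mice's age at collection and the number of animals behind each library are not given in the sources used here. Since every group is a single library, the spread between replicates is not known and nothing was tested. A difference between libraries cannot be told apart from a difference between culture preparations, and every interval below covers counting error only.

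Cells were kept with 5000 to 75000 unique molecular identifiers (UMIs), 200 to 7500 genes and under 10% mitochondrial UMIs, which left 7629 iWAT DFAT, 6464 eWAT DFAT, 7424 iWAT SVF and 6745 eWAT SVF cells of 1599387 to 1930796 barcodes. The study's own lower limit of 500 UMIs, with the other limits the same, would leave 6988 to 7843 barcodes a library. Median depth was 22111 to 27617 UMIs a cell, and any pair of libraries shared 13 to 20 barcodes. At least 5 of 10 stromal markers were found in 98.5% of iWAT DFAT, 84.4% of eWAT DFAT, 94.98% of iWAT SVF and 93.9% of eWAT SVF cells; the 10 stromal markers summed to 2415 CPM (UMIs per 1000000 UMIs of the kept cells) in eWAT DFAT cells and to 7078 to 7958 CPM in the others. The 10 adipocyte markers summed to 32.8 CPM in iWAT DFAT, 116 CPM in eWAT DFAT, 4.30 CPM in iWAT SVF and 5.96 CPM in eWAT SVF cells, with Lep at 0 in all 4. The file of the iWAT SVF library names version 4 of its writing software and the other 3 name 7.1.0. This difference and the group cannot be told apart. The median log2 ratio over the 2246 genes with the shortest and the 2246 with the longest spans was -0.01 and 0.11 for iWAT SVF against eWAT SVF, -0.08 and 0.26 for iWAT DFAT against iWAT SVF, and, for the pairs with the same version, -0.05 and 0.23 for iWAT DFAT against eWAT DFAT and -0.01 and 0.13 for eWAT DFAT against eWAT SVF.

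Sequences from the mouse RefSeq tables (GRCm38.p6) are shown for the promoters of Meg3 and Igf2r, because across single cells the gene most like each was a noncoding RNA of the same locus. Each run is 300 bases, 250 before and 50 after the start, 5′ to 3′ on the gene's strand, with CpG dinucleotides, the bases that imprinting methylates, in capitals. The Meg3 window is chr12:109540746-109541045 on the + strand and the Igf2r window is chr17:12769657-12769956 on the - strand.
Meg3: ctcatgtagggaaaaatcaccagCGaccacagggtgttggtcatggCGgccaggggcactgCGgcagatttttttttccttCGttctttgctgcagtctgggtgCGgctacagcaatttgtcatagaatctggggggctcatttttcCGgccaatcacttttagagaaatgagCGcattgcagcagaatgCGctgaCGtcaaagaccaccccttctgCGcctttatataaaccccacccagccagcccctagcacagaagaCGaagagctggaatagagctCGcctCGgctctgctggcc
Igf2r: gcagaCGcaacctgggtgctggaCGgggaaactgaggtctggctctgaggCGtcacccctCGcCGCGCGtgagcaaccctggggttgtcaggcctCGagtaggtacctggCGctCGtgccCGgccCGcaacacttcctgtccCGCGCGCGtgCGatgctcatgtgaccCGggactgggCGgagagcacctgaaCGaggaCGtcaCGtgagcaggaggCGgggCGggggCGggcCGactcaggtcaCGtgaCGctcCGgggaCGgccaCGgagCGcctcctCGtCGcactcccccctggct
The Meg3 window held 13 CpGs and the Igf2r window 34, against a median of 7 over 32851 promoters of this length; 37.9% of promoters held at least as many as Meg3 and 7.73% at least as many as Igf2r. The cyclic AMP response element TGACGTCA, which reads the same on both strands, occurred 1 time in the Meg3 window and 0 times in the Igf2r window, and 588 promoters (1.79%) held it. These are descriptions of letters in a window, and no methylation was measured.

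4 members contain a microRNA hairpin, and its mature 5p arm is given with the seed (bases 2 to 8) in capitals. Mature microRNAs are not read by these libraries, so the values below are those of the long host RNA.
miR-675-5p (H19): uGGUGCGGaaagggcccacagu
miR-483-5p (Igf2): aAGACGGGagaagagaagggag
miR-335-5p (Mest): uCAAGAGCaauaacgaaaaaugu
miR-770-5p (Meg3): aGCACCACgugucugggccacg
Their 4 seeds differ. In the same cluster of chromosome 12 as Meg3, the noncoding genes Rian and Mirg contain 3 and 14 annotated hairpins.

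The levels of the genes are given next by role, as CPM of all UMIs in kept cells with an exact Poisson 95% interval where counts were few. UMIs come from the 3′ end of transcripts and from introns and are not scaled by length, so levels are compared between libraries for 1 gene and not between genes. A lower level can mean fewer cells with the RNA or less RNA per cell, so the share of cells with a UMI is given beside it, after each cell was thinned to 5000 UMIs unless full depth is named. Free RNA, read from droplets of 1 to 100 UMIs, also places UMIs in cells that lack a gene.

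Igf2, the growth factor that signals through the Igf1 and insulin receptors, lies at chr7:142650766-142666816 on the - strand (mm10, GENCODE M21, as for all genes here). It was near the limit of detection, at 0.152 CPM (28 UMIs, interval 0.101 to 0.220) in iWAT DFAT, 0.0862 CPM (16 UMIs, 0.0493 to 0.140) in eWAT DFAT, 0.301 CPM (60 UMIs, 0.230 to 0.387) in iWAT SVF and 0.263 CPM (52 UMIs, 0.197 to 0.345) in eWAT SVF cells. The 2 SVF values overlap in their intervals, as do the 2 DFAT values. Thinned shares of cells with a UMI were 0.144%, 0.0619%, 0.148% and 0.208%, against 0 of 20 (up to 15%), 0.676%, 1.82% and 8.57% of the endothelial-marker cells, and nothing is read from them. At full depth 14 to 32 cells of a library held an Igf2 UMI, and in eWAT SVF 42 of the 52 UMIs lay in the 140 cells with endothelial markers.

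H19, a noncoding RNA of the same imprinted domain, lies 72.6 kb from Igf2 at chr7:142575529-142578143 on the - strand. Its level was 0.953 CPM (175 UMIs, 0.817 to 1.10) in iWAT DFAT, 0.189 CPM (35 UMIs, 0.131 to 0.262) in eWAT DFAT, 5.08 CPM (1012 UMIs, 4.77 to 5.40) in iWAT SVF and 0.456 CPM (90 UMIs, 0.366 to 0.560) in eWAT SVF cells. The intervals did not overlap, and the iWAT library was the higher in both kinds of culture. Thinned shares of cells with a UMI were 0.472%, 0.0774%, 2.02% and 0.208% in the same order. Of the endothelial-marker cells, 0 of 20 in iWAT DFAT (which allows a share of up to 15%), 2.03% in eWAT DFAT, 1.82% (1 of 55 cells) in iWAT SVF and 4.29% in eWAT SVF held one. These shares were about as high as that of all cells in iWAT SVF and above it in both eWAT libraries, so no difference is read from the shares. The median depths of these cells in the eWAT libraries were 11794 and 14752 UMIs against 27425 and 27617 for all cells. In iWAT SVF the most UMIs in 1 cell was 50, and 50 cells held 5 or more.

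Igf2r, the receptor that takes Igf2 to the lysosome and so limits its signal, spans chr17:12682406-12769664 on the - strand. Its level was 42.1 CPM in iWAT DFAT, 28.2 CPM in eWAT DFAT, 50.3 CPM in iWAT SVF and 31.2 CPM in eWAT SVF cells, from 5227 to 10030 UMIs. Both iWAT libraries were above both eWAT libraries, by 1.496-fold for DFAT and 1.61-fold for SVF cells. Thinned shares were 18.4%, 12.8%, 21.3% and 14.4%, and endothelial-marker cells, at 10.0% to 35.1%, were not a background for it. Igf2r and the noncoding RNA Airn, which silences the paternal Igf2r copy, overlap by 28.4 kb on opposite strands; use of strand in the counting is not given in the sources used here, so without it reads in that stretch could not be told apart.

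Grb10, an adaptor that binds the insulin and Igf1 receptors and damps their signal, spans chr11:11930508-12038683 on the - strand. Its level was 104 CPM in iWAT DFAT, 80.4 CPM in eWAT DFAT, 161 CPM in iWAT SVF and 198 CPM in eWAT SVF cells. It was the only member highest in eWAT SVF, and both SVF libraries were above both DFAT libraries. Thinned shares were 38.2%, 28.6%, 49.5% and 52.7% in that order, and endothelial-marker cells were not a background for it, at 34.5% to 58.2%.

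Cdkn1c, the inhibitor of cyclin-dependent kinases that holds cells in quiescence, lies at chr7:143458339-143461050 on the - strand, 792 kb from Igf2. Its level was 7.98 CPM (1466 UMIs) in iWAT DFAT, 4.203 CPM (780 UMIs) in eWAT DFAT, 79.9 CPM (15936 UMIs, 78.7 to 81.2) in iWAT SVF and 5.43 CPM (1072 UMIs) in eWAT SVF cells. The iWAT SVF library stood apart from the other 3, which lay between 4.203 and 7.98 CPM. At 5000 UMIs a cell, 15.2% of iWAT SVF cells held a Cdkn1c UMI against 3.95% of iWAT DFAT, 1.30% of eWAT DFAT and 2.25% of eWAT SVF cells. Of the endothelial-marker cells 0 of 55 in iWAT SVF (up to 5.45%), 0 of 20 in iWAT DFAT (up to 15%), 7.43% in eWAT DFAT and 5.0% in eWAT SVF held one, so that the eWAT shares of all cells lay under these and nothing is read from them. At full depth the iWAT SVF share was 33.6%, against 12.7% of that library's 55 endothelial-marker cells at a median of 15919 UMIs.

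Dlk1, a membrane protein of the Notch ligand family that is shed and inhibits adipogenesis, lies at chr12:109452823-109463336 on the + strand. Its level was 3.09 CPM (567 UMIs, 2.84 to 3.35) in iWAT DFAT, 1.78 CPM (330 UMIs, 1.59 to 1.98) in eWAT DFAT, 15.5 CPM (3094 UMIs) in iWAT SVF and 4.42 CPM (873 UMIs, 4.13 to 4.72) in eWAT SVF cells. Thinned shares were 1.36%, 0.944%, 5.67% and 2.00%. At full depth a UMI was found in 5.32%, 4.08%, 17.2% and 6.08% of cells, against 5.00%, 0.676%, 1.82% and 1.43% of the shallower endothelial-marker cells. The intervals of the levels did not overlap between libraries.

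Meg3, the noncoding RNA 77.7 kb downstream of Dlk1, lies at chr12:109541001-109571726 on the + strand and is read from the other parental copy. Its level was 254 CPM in iWAT DFAT, 107 CPM in eWAT DFAT, 499 CPM in iWAT SVF and 340 CPM in eWAT SVF cells, from 19841 to 99515 UMIs. The order was iWAT SVF, eWAT SVF, iWAT DFAT and eWAT DFAT, as for Dlk1 in all cells. In cells in no class Meg3 kept it, at 505, 336, 255 and 108 CPM, while Dlk1 was then higher in iWAT DFAT (3.10 CPM) than in eWAT SVF (2.70 CPM). At 5000 UMIs a cell, 51.7%, 28.1%, 71.6% and 56.4% of cells held a UMI, against 15.0%, 2.70%, 9.09% and 6.43% of the endothelial-marker cells, so the RNA was present in most cells of 3 libraries.

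Plagl1, a zinc finger factor that binds other imprinted loci, spans chr10:13060504-13131694 on the + strand. Its level was 4.46 CPM (819 UMIs) in iWAT DFAT, 2.29 CPM (425 UMIs) in eWAT DFAT, 9.66 CPM (1926 UMIs) in iWAT SVF and 3.73 CPM (736 UMIs) in eWAT SVF cells. The iWAT SVF value was the highest, and each iWAT library was above its eWAT counterpart. Thinned shares were 1.87%, 1.21%, 4.38% and 1.94%, against 0 of 20 (up to 15%) of the iWAT DFAT, 0.676% of the eWAT DFAT, 5.45% of the iWAT SVF and 2.14% of the eWAT SVF endothelial-marker cells.

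Peg3, a large zinc finger protein, lies at chr7:6703892-6730431 on the - strand. Its level was 16.7 CPM in iWAT DFAT, 11.9 CPM in eWAT DFAT, 18.3 CPM in iWAT SVF and 16.4 CPM in eWAT SVF cells, the narrowest range of the 10 at 1.54-fold. The intervals of iWAT DFAT (16.1 to 17.3) and eWAT SVF (15.8 to 17.0) overlapped. Thinned shares were 7.31%, 5.20%, 7.21% and 7.09%, and 4.29% to 20% in endothelial-marker cells.

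Mest, an enzyme of the hydrolase family tied to fat cell enlargement, spans chr6:30723547-30748465 on the + strand. Its level was 2.15 CPM (394 UMIs, 1.94 to 2.37) in iWAT DFAT, 3.73 CPM (693 UMIs, 3.46 to 4.02) in eWAT DFAT, 2.91 CPM (580 UMIs, 2.68 to 3.16) in iWAT SVF and 3.56 CPM (704 UMIs, 3.31 to 3.84) in eWAT SVF cells. It was the only member highest in eWAT DFAT and lowest in iWAT DFAT, and the 2 eWAT intervals overlapped. Thinned shares were 0.813%, 1.83%, 1.45% and 1.65%, and 6.43% to 55.0% in endothelial-marker cells.

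**Figure D1:**
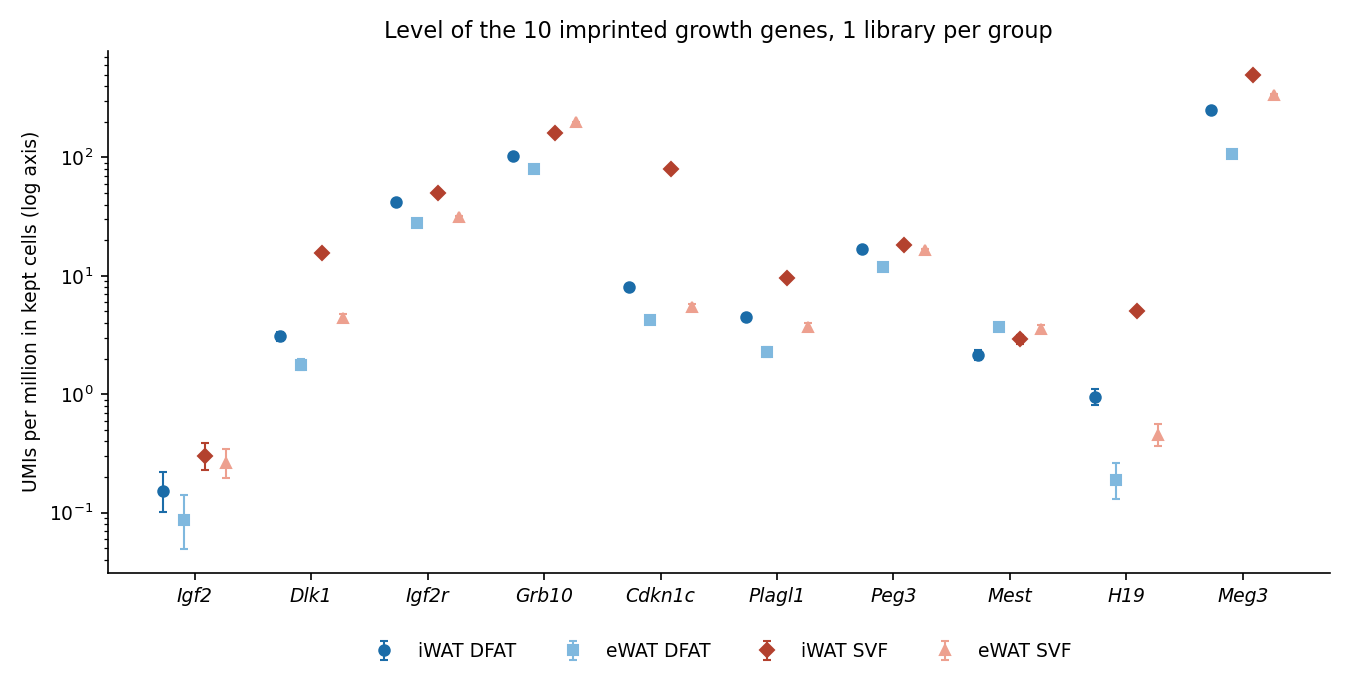
Levels of the 10 genes in the 4 libraries, as CPM on a log axis with exact Poisson 95% intervals. Cdkn1c, H19 and Dlk1 stand highest in iWAT SVF (79.9, 5.08 and 15.5 CPM), while Peg3, Mest and Igf2r vary by under 2-fold.

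Free RNA was read from barcodes with 1 to 100 UMIs. Cdkn1c was at 63.9 CPM in the free RNA of iWAT SVF, and at 4.83 CPM in iWAT DFAT, 5.26 CPM in eWAT DFAT and 6.20 CPM in eWAT SVF. The last 3 values rest on 35, 39 and 44 UMIs. Their intervals overlap (3.36 to 6.72, 3.74 to 7.20 and 4.50 to 8.32), so no order is read from them. Meg3 ran from 95.7 CPM in eWAT DFAT to 482 CPM in iWAT SVF, and Dlk1 was at 22.4 CPM in iWAT SVF free RNA against 15.5 CPM in its cells. Taking free RNA as 10% of each cell's UMIs and subtracting it shifted no log2 ratio of a member by more than 0.19.

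The comparison of depots asks where subcutaneous and visceral cultures of the same kind differ, and the iWAT SVF culture was above the eWAT SVF culture for Cdkn1c by 14.7-fold, for H19 by 11.1-fold, for Dlk1 by 3.51-fold and for Plagl1 by 2.59-fold. Their log2 ratios were 3.88 (3.79 to 3.97), 3.48 (3.17 to 3.81), 1.81 (1.70 to 1.92) and 1.37 (1.25 to 1.499). In cells with no cycling marker the H19 ratio was 4.62, from 22 UMIs in eWAT SVF, and without cells of other types the Dlk1 ratio was 2.55. A gene was counted as past 2-fold when it had at least 5 CPM in the higher library. Of the 8 members at that level, 4 were at least 2-fold higher in iWAT SVF and 0 lower, against 2.94% higher and 3.94% lower of the 10135 genes at that level. H19, Dlk1 and Plagl1 reached 5 CPM only in iWAT SVF, where they were high, so this count and the median log2 ratio of 1.03 over the 8 members (0.05 over all these genes) were partly set by the limit. With no limit, 4 of the 10 members were at least 2-fold higher, against 16.3% of 24679 genes, and their median was 0.62, against 0.08 over all genes. The other members lay between a log2 ratio of -0.30 for Grb10 and 0.69 for Igf2r, with Meg3 at 0.55, Igf2 at 0.19, Peg3 at 0.16 and Mest at -0.29. Of the 52 Igf2 UMIs of eWAT SVF, 42 lay in endothelial-marker cells. Without cells in any class of other types the Igf2 ratio was 2.51, from 55 UMIs in iWAT SVF and 9 in eWAT SVF. As a mean of CPM over cells it was -0.76.

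Between DFAT depots, Meg3 was 2.38-fold higher in iWAT DFAT (log2 1.25, 1.22 to 1.27), the only one of 5 members at 5 CPM or more that passed 2-fold, where 8.29% of 10384 genes were at least 2-fold higher and 3.95% lower. Cdkn1c, 14.7-fold apart between the SVF depots, was 1.90-fold apart here (log2 0.93, 0.80 to 1.05). The median of the 5 members was 0.58 against 0.09 over all genes at that level, and Cdkn1c was among them only through iWAT DFAT, where it was the higher. With no limit, 2 of the 10 members were at least 2-fold higher, against 15% of 25257 genes, and their median was 0.81, against 0.01 over all genes. Among members under 5 CPM, H19 had a log2 ratio of 2.34 (1.81 to 2.90), which was 3.51 without cells of other types, 1.77 in cells with no cycling marker and 1.26 as a mean of CPM over cells. The 3.51 and the 1.77 rest on 15 and 13 H19 UMIs in eWAT DFAT. Plagl1 was at 0.96 and Dlk1 at 0.80, and Mest was lower in iWAT at -0.80 (-0.98 to -0.62). Without the cells that carried markers of other types, Cdkn1c also passed 2-fold, at a log2 ratio of 1.68, since 293 of its 780 UMIs in eWAT DFAT lay in cells with pericyte markers. In cells with no cycling marker it was lower in iWAT instead, at -0.24. Without cells of other types as well, it was again higher in iWAT, at 8.23 CPM against 4.89 CPM in eWAT DFAT.

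The comparison of DFAT with SVF cells sets whole cultures of the same depot side by side, cells with markers of other types included. In eWAT DFAT these were 148 cells with endothelial, 106 with adipocyte, 86 with pericyte and 48 with mesothelial markers, beside a few others. In both depots no member at 5 CPM or more was higher in DFAT cells when all cells were counted. In eWAT, Cdkn1c reached 5 CPM only in SVF cells, and in cells with no cycling marker it was higher in DFAT cells, at a log2 ratio of 0.64. Without cells of other types as well, it was at 4.89 CPM in eWAT DFAT and 5.30 CPM in eWAT SVF cells. In iWAT, Cdkn1c was 10.0-fold lower in DFAT cells (log2 -3.32, -3.40 to -3.25), H19 5.33-fold (log2 -2.41), Dlk1 5.03-fold (log2 -2.33) and Plagl1 2.17-fold (log2 -1.12). These were 4 of 8 members, where 5.18% of 10426 genes were at least 2-fold lower and 9.91% higher. H19, Dlk1 and Plagl1 reached 5 CPM only in iWAT SVF here too, so the count and the 8 members' median of -1.04 (0.09 over all genes at that level) were partly set by the limit. With no limit, 4 of the 10 members were at least 2-fold lower, against 15.3% of 24942 genes, and their median was -0.98, against 0.11 over all genes. Meg3 was just inside 2-fold at -0.97 and past it at -1.06 with scaling by the median of ratios, which made the count 5 of 8, Igf2 was at -0.98 with 28 and 60 UMIs, and Peg3 at -0.13 and Igf2r at -0.26 were nearest to 0.

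In eWAT, Meg3 was 3.18-fold lower in DFAT cells (log2 -1.67, -1.69 to -1.65) and Grb10 2.46-fold lower (log2 -1.30, -1.32 to -1.27). These were 2 of 5 members, where 6.67% of 10298 genes were at least 2-fold lower and 6.44% higher, and the 5 members' median was -0.46 against 0.07. With no limit, 5 of the 10 members were at least 2-fold lower, against 11.9% of 25126 genes, and their median was -0.99, against 0.20 over all genes. Of the genes that led in iWAT, Cdkn1c had a log2 ratio of -0.37, and H19 (-1.27), Dlk1 (-1.31) and Plagl1 (-0.70) were under 5 CPM in both eWAT libraries. In cells with no cycling marker the H19 ratio was -0.08, from 13 and 22 UMIs. The Cdkn1c ratio was 0.64 in them, which did not hold without cells of other types as well, as given above. Without cells of other types the Cdkn1c ratio was -0.97, the H19 ratio -2.23 (15 and 72 UMIs) and the Dlk1 ratio -0.65. Igf2 (-1.61, from 16 and 52 UMIs) was also under 5 CPM. Its ratio was 0.45 without cells that carried markers of other types. That value rests on 12 and 9 UMIs with overlapping intervals, so no direction is read from it. The DFAT comparison and the depot comparison of a culture share a library, so their ratios are not independent of each other.

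Setting the depots side by side, the DFAT to SVF log2 ratio in iWAT minus that in eWAT was -2.96 for Cdkn1c, -1.14 for H19 and -1.02 for Dlk1, and 0.70 for Meg3 and 0.66 for Grb10. The H19 difference was -0.19 without cells of other types, -2.07 as a mean of CPM over cells and -2.85 in cells with no cycling marker. The first and last of these rest on 15 and 13 H19 UMIs in eWAT DFAT. For Dlk1 the difference was -1.70 without cells of other types, and for Cdkn1c it was -2.36 without them and -4.38 in cells with no cycling marker. The -4.38 includes cells of other types. In the eWAT DFAT cells with no cycling marker, Cdkn1c was at 9.63 CPM with them and 4.89 CPM without them. With 1 library in each of the 4 groups these differences were not tested.

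**Figure D2:**
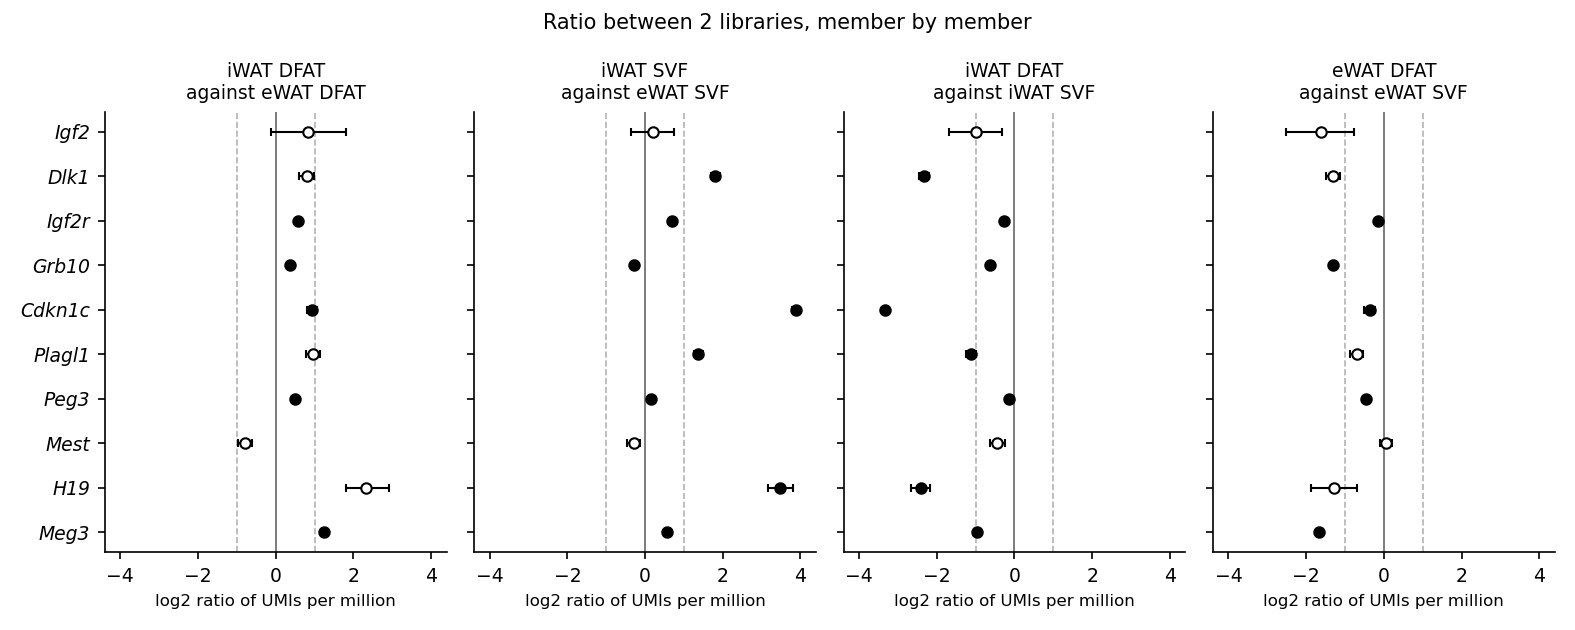
Log2 ratios of the 10 genes in the 4 comparisons, with 95% intervals for counting error. Filled points are genes with at least 5 CPM in the higher library, open points the others, and dashed lines mark 2-fold; Cdkn1c lies at 3.88 between SVF depots, at 0.93 between DFAT depots, at -3.32 for DFAT against SVF in iWAT and at -0.37 in eWAT.

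Further genes of the Dlk1-Meg3 domain of chromosome 12 were set beside both members. Rian, Mirg and Rtl1 are the neighbours of Meg3: Rian and Mirg are noncoding hosts of small RNAs and Rtl1 is a retrotransposon-derived gene needed in the placenta. Rian was at 69.3 CPM in iWAT DFAT, 30.1 CPM in eWAT DFAT, 146 CPM in iWAT SVF and 80.8 CPM in eWAT SVF cells. Mirg ran from 3.80 to 15.4 CPM and Rtl1 from 0.496 to 2.22 CPM, lowest in eWAT DFAT and highest in iWAT SVF. In all cells, the 5 genes from Dlk1 to Mirg had the order iWAT SVF, eWAT SVF, iWAT DFAT, eWAT DFAT, whose share among all genes was not counted. It was not particular to the domain. Genes elsewhere had it too, among them Igf2, Ndn (91.7, 67.0, 55.6 and 44.3 CPM) and Igf1r (208, 163, 127 and 108 CPM). Without cells of other types Meg3, Rtl1, Rian and Mirg had this order and Dlk1 did not, as given above. Dio3, the thyroid hormone deiodinase 707 kb from Meg3 at the far end of the domain, did not follow it: it was at 11.1 CPM in eWAT SVF and at 1.34 to 1.72 CPM in the other libraries. Begain, at the other end near Dlk1, did not follow it either, at 1.88 CPM in iWAT DFAT, 1.45 CPM in eWAT DFAT, 1.33 CPM in iWAT SVF and 1.15 CPM in eWAT SVF.

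**Figure D3:**
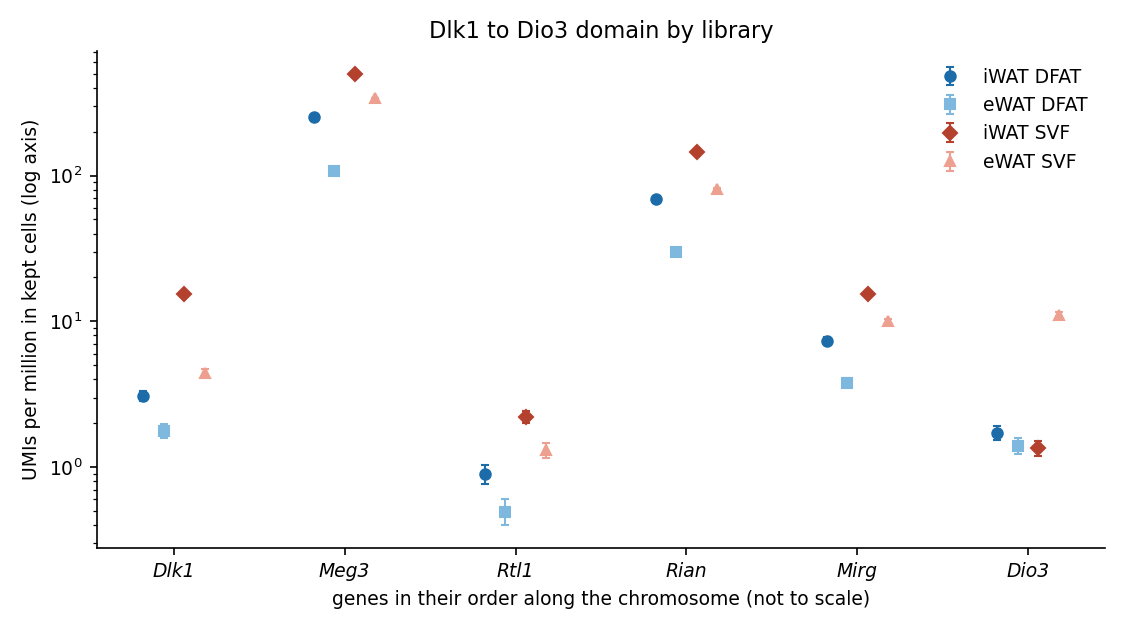
Levels of Dlk1, Meg3, Rtl1, Rian, Mirg and Dio3 in the 4 libraries, as CPM on a log axis with exact Poisson 95% intervals. In all cells, as drawn, the first 5 share an order of libraries, which Dlk1 left without cells of other types. The share of all genes with that order was not counted, and genes outside the domain, such as Ndn and Igf1r, also had it. Dio3 is highest in eWAT SVF at 11.1 CPM and lies at 1.34 to 1.72 CPM elsewhere.

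Cells with markers of other types were few but held a large part of the UMIs of some members. A cell was assigned to a class when it held a UMI of at least 4 of the 8 markers of that class (5 of 10 for adipocytes), none of which is a member. Cells in none of these classes, which may still hold a few of the markers, made up 99.2% of iWAT DFAT, 94.1% of eWAT DFAT, 96.7% of iWAT SVF and 90.2% of eWAT SVF cells. No doublet caller was run, and a doublet of a stromal and another cell would fall into the class of the other.

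Endothelial-marker cells (20, 148, 55 and 140 of the 4 libraries, in the order used above) were high in Mest, at 206 CPM in iWAT DFAT, 61.4 CPM in eWAT DFAT, 81.7 CPM in iWAT SVF and 16.6 CPM in eWAT SVF, against 1.69, 2.98, 2.41 and 3.00 CPM in cells in no class. These few cells held 21.8%, 21.1%, 15.0% and 6.11% of all Mest UMIs. They also held 80.8% of the Igf2 UMIs of eWAT SVF, at 16.2 CPM against 0.0495 CPM in cells in no class, and 20 of the 35 H19 UMIs of eWAT DFAT, at 8.40 against 0.0843 CPM. Those 20 UMIs lay in 4 of the 148 cells. Meg3 went the other way, at 28.2 to 122 CPM in endothelial-marker cells against 108 to 505 CPM in cells in no class.

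Mesothelial-marker cells, the lining of visceral fat, were found in the eWAT libraries (478 in SVF and 48 in DFAT). None of the iWAT DFAT or iWAT SVF cells passed, which allows a share of up to 0.0393% and 0.0404%. The 8 mesothelial markers summed to 5.85 CPM in iWAT DFAT, 12.0 CPM in eWAT DFAT, 71.9 CPM in iWAT SVF and 112 CPM in eWAT SVF, and in iWAT SVF 70.7 of the 71.9 CPM were the keratin gene Krt19. In eWAT SVF they held 42.7% of the Dlk1 UMIs, at 30.8 CPM against 2.70 CPM in cells in no class, an 11.4-fold difference that was 9.08-fold in eWAT DFAT (15.6 and 1.72 CPM). Grb10 was at 448 CPM against 183 CPM in eWAT SVF and at 305 against 78.7 CPM in eWAT DFAT. Plagl1 was at 16.0 against 2.90 CPM in eWAT SVF, and at 2.47 (3 UMIs) against 2.18 CPM in eWAT DFAT. Without cells of other types the depot ratio of Dlk1 between SVF cultures was 2.55 in place of 1.81 on the log2 scale.

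Pericyte-marker cells stood out for Cdkn1c in eWAT DFAT, where the other cells were low. The 86 such cells were at 141 CPM against 2.50 CPM in cells in no class and held 37.6% of its UMIs. In iWAT SVF, 50 pericyte-marker cells were at 102 CPM, beside 80.6 CPM in cells in no class. Their 169 UMIs were 1.06% of the Cdkn1c UMIs of that library, so its level there hardly depended on them. The 106 adipocyte-marker cells of eWAT DFAT were low in Meg3 (9.59 against 108 CPM) and high in Peg3 (56.6 against 11.1 CPM) and Plagl1 (12.3 against 2.18 CPM).

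**Figure D4:**
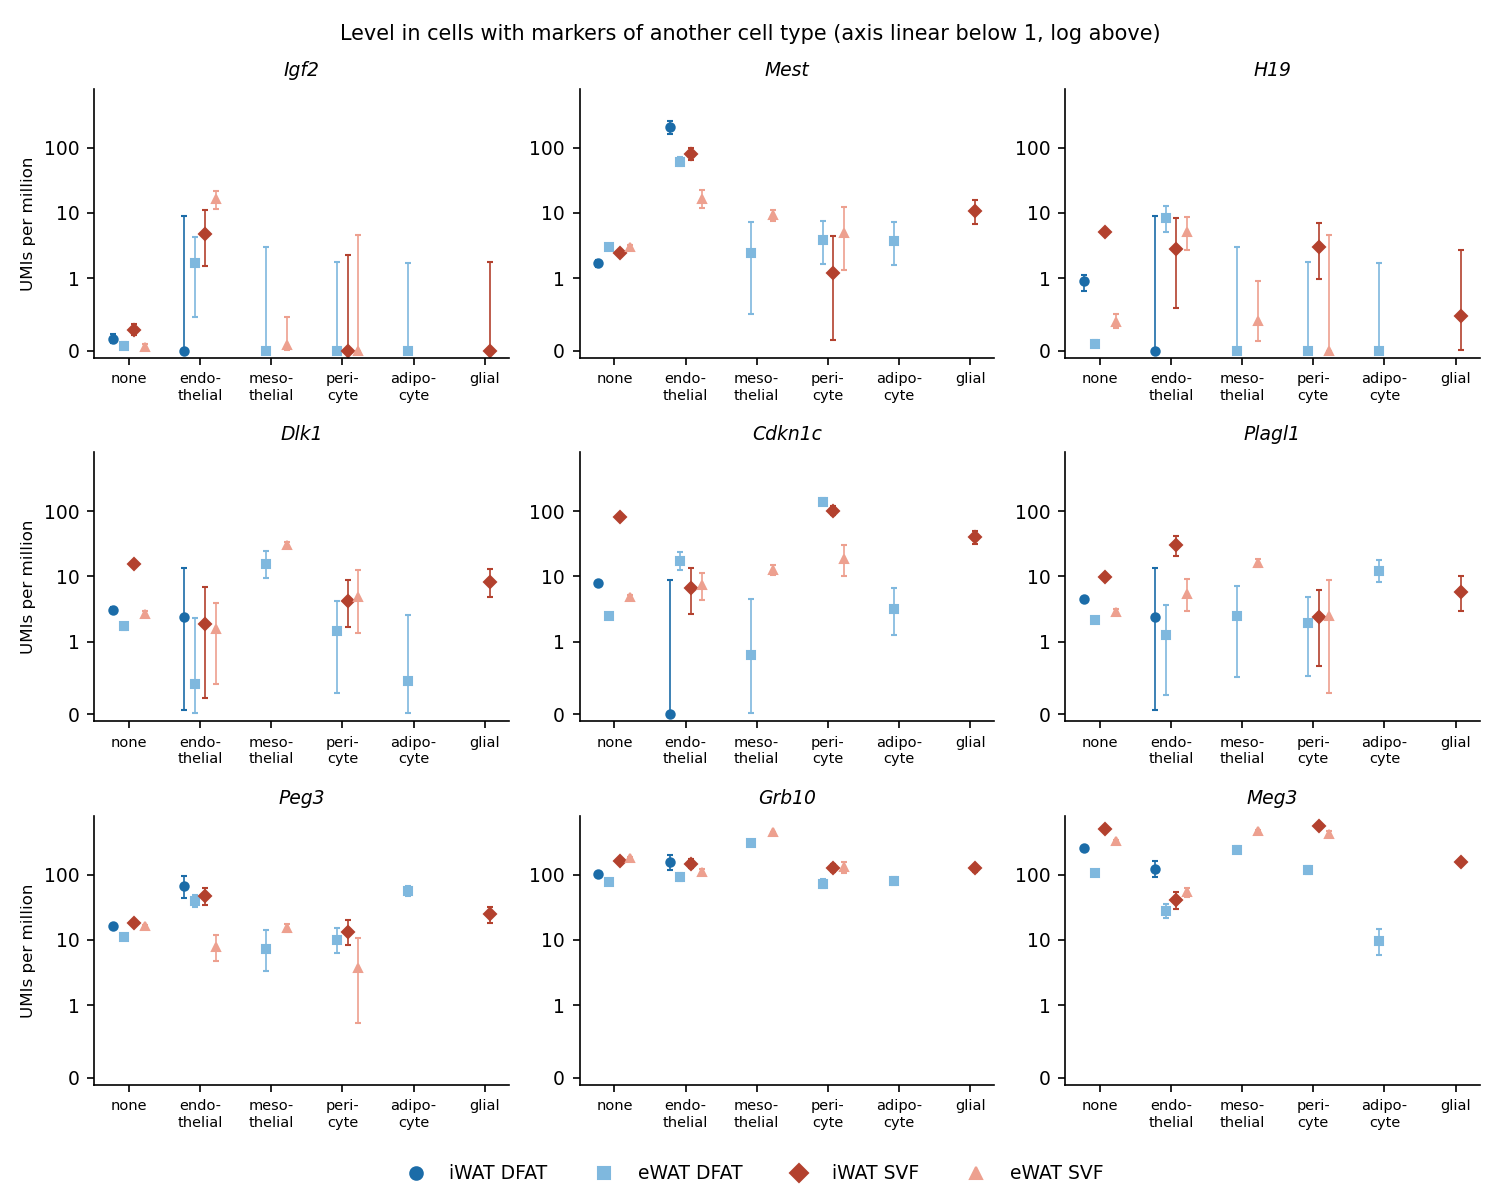
Levels of 9 of the genes (Igf2r is left out) in cells in none of the classes and in cells of each marker class with at least 20 cells, by library, as CPM on an axis that is linear below 1 and logarithmic above. The immune class (25 cells of eWAT SVF) is not drawn. Mest is highest in endothelial-marker cells (206 CPM in iWAT DFAT), Dlk1 in the mesothelial-marker cells of eWAT (30.8 CPM in SVF) and Cdkn1c in pericyte-marker cells (141 CPM in eWAT DFAT).

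Several members act on cell division, so dividing cells, with at least 3 of 10 cycling markers after thinning, were set against cells with none, within each library. Dividing cells were 34.7% of iWAT DFAT, 41.5% of eWAT DFAT, 37.3% of iWAT SVF and 27.3% of eWAT SVF cells, and were deeper than non-dividing cells, with medians of 26771 to 30311 against 19670 to 26411 UMIs. The members past 2-fold were 0 of 6 in iWAT DFAT, 1 of 5 in eWAT DFAT, 0 of 8 in iWAT SVF and 0 of 6 in eWAT SVF, where 7.6%, 6.62%, 6.11% and 6.26% of genes were past it in either direction. The 1 reached 5 CPM only in the non-dividing cells, where it was high, so that this count was partly set by the limit. With no limit on CPM but more than 3 UMIs in both kinds of cells, the counts were 0 of 10, 2 of 9, 1 of 10 and 1 of 10, against 11.6%, 11.6%, 9.79% and 10.4% of genes. The members added were H19 in eWAT DFAT, Igf2 in iWAT SVF and H19 in eWAT SVF, from 6 to 60 UMIs in either kind of cell.

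The one member past 2-fold was Cdkn1c in eWAT DFAT, at 1.55 CPM in dividing and 9.63 CPM in non-dividing cells (log2 -2.63, -2.92 to -2.35). Without cells of other types it was 1.43 against 4.89 CPM (log2 -1.77, -2.10 to -1.45), and then under 5 CPM. In iWAT SVF, where it was highest, dividing cells held 58.0 CPM and non-dividing cells 109 CPM (log2 -0.91, -0.96 to -0.86). In iWAT DFAT the log2 ratio was -0.12 and in eWAT SVF -0.40. The related inhibitor Cdkn1a lay between -0.25 and 0.14 and Cdkn1b between 0.23 and 0.55.

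Meg3 was lower in dividing cells of all 4 libraries, at 215 against 305 CPM in iWAT DFAT, 85.3 against 143 CPM in eWAT DFAT, 415 against 603 CPM in iWAT SVF and 252 against 398 CPM in eWAT SVF. Its log2 ratios of -0.51 to -0.74 were beside -0.49 to -0.78 for Malat1, a nuclear noncoding RNA, and -0.32 to -0.53 for Rian. Peg3 was higher in dividing cells of the SVF cultures, with log2 ratios of 0.43 in iWAT and 0.91 in eWAT, and at 0.07 and 0.10 in the DFAT cultures. Without cells of other types it was also higher in eWAT DFAT, at 0.33 (0.17 to 0.48), and at 0.10 in iWAT DFAT. Grb10 was higher in dividing cells of eWAT DFAT, at 0.34 (0.29 to 0.40), and at 0.42 without cells of other types. In the other libraries it lay at 0.01 to 0.13, and Igf2r lay at -0.20 to -0.12. H19 in eWAT SVF had 60 UMIs in dividing and 22 in non-dividing cells (log2 2.08, 1.35 to 2.85), at about 1 CPM or less in both. Without cells of other types it had 55 and 11 UMIs (log2 2.96, 2.01 to 4.04). Dlk1 ran from -0.18 in iWAT SVF to 0.77 in iWAT DFAT, with eWAT SVF at 0.28. Without cells of other types it was 0.99 in eWAT SVF (0.68 to 1.30), at 3.69 against 1.86 CPM.

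**Figure D5:**
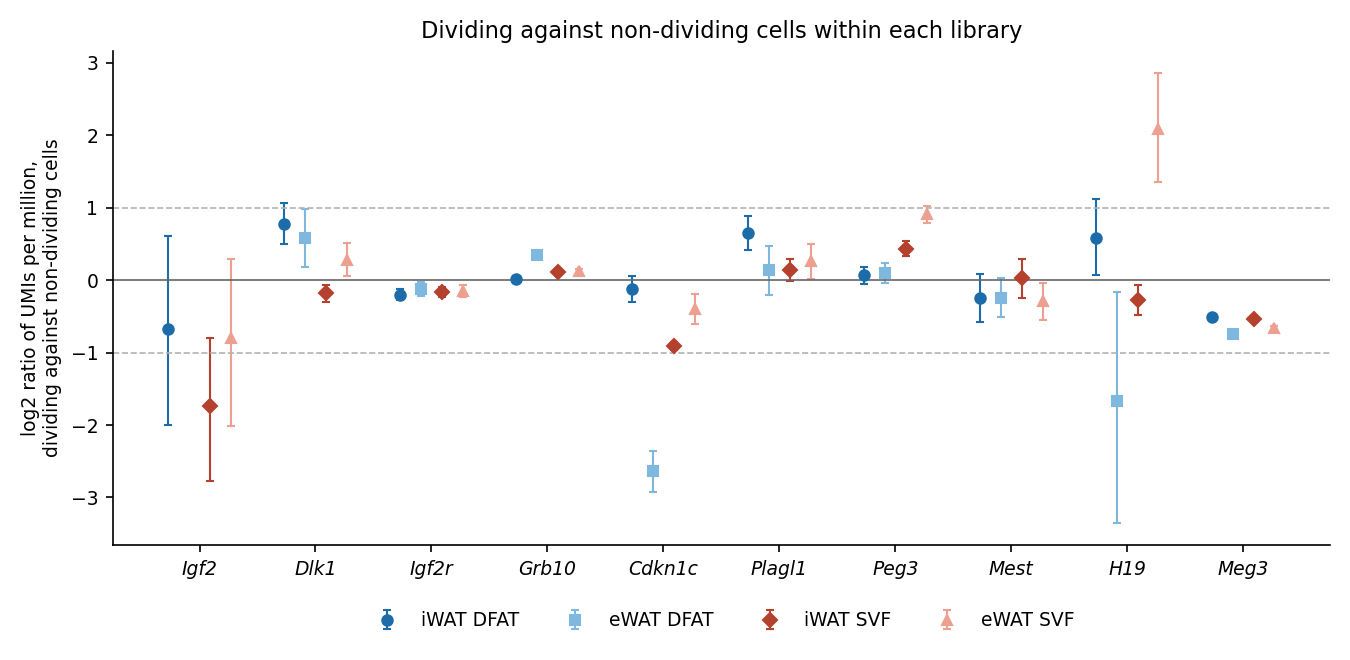
Log2 ratio of dividing to non-dividing cells for each gene in each library, with 95% intervals for counting error; Igf2 in eWAT DFAT has no point because 2 UMIs were left in dividing cells. Meg3 lies below 0 in all 4 libraries (-0.51 to -0.74), and Cdkn1c in eWAT DFAT is the farthest of the genes at 5 CPM or more, at -2.63.

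Across the cells of a library, Cdkn1c was the member with the highest ratio of variance to mean after thinning in both SVF libraries. The ratio was 4.96 in eWAT SVF, where at full depth 1 cell held 113 of the 1072 UMIs and 24 cells held 5 or more. It was 4.19 in eWAT DFAT, where 1 cell held 76 of the 780 UMIs and 25 cells held 5 or more. In iWAT DFAT it was 1.20. Other members were higher in both DFAT libraries. In iWAT SVF 996 cells held 1 Cdkn1c UMI, 750 cells (10.1%) held 5 or more, 1 cell held 184, and the top 10% of cells held 80.9% of the UMIs. At 5000 UMIs a cell its variance was 5.56 times its mean. Its variance less its mean, over the squared mean, was 12.6. Of 5915 genes at 20 CPM or more, 0.304% had a higher value of this second measure. Meg3 in the same library had 5 or more UMIs in 68.1% of cells and a ratio of variance to mean of 2.68.

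Correlations across cells are given as a description with no test, over log2(counts per 10000 + 1) within each library, where cells share depth and free RNA. Most members had few UMIs a cell, which holds r near 0, so nothing is read from low values. Dlk1 and Meg3, neighbours read from opposite parental copies, had Pearson's r of 0.083 in iWAT DFAT, 0.093 in eWAT DFAT, 0.124 in iWAT SVF and 0.115 in eWAT SVF. Meg3 was at 642 CPM in the 421 iWAT SVF cells with a Dlk1 UMI against 462 CPM in the rest, after thinning, and at 308 against 254 CPM in iWAT DFAT, 164 against 99.7 CPM in eWAT DFAT and 575 against 327 CPM in eWAT SVF. H19 and Igf2 had r of 0.4576 in eWAT DFAT, which rests on 16 cells with H19 and 14 with Igf2, and of -0.0056 in iWAT DFAT, 0.2032 in iWAT SVF and 0.2303 in eWAT SVF. Endothelial-marker cells held 20 of the 35 H19 and 4 of the 16 Igf2 UMIs of eWAT DFAT. In eWAT SVF they held 13 of the 90 H19 and 42 of the 52 Igf2 UMIs. No r without these cells is given, so none is read for the stromal cells.

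For the 4 members at 5 CPM or more in every library, the most similar genes were sought among 5120 genes at 20 CPM or more in all libraries. Meg3 was most like Rian, 32.2 kb away on the same strand, with r of 0.653, 0.666, 0.687 and 0.6998 in the 4 libraries; Malat1 followed at a mean of 0.332 and the collagen gene Col1a2 at 0.320. Igf2r was most like its overlapping antisense RNA Airn, at a mean r of 0.256 (0.193 to 0.312), followed by Fndc3b and Exoc4. Grb10 was most like Zfpm2 (0.257), Celf2 (0.246) and Rbms3 (0.239). For Peg3 the highest values were weak, at 0.114 for Zbtb20, 0.110 for Utrn and 0.109 for Hist1h1b. In iWAT SVF alone, a set chosen after its values were seen, Cdkn1c was most like Gsto1, Hspb1, Tmsb10, Tinagl1 and S100a6, at r of 0.17 to 0.21.

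Of 45 other imprinted genes, 20 had 5 CPM or more between DFAT depots, 22 between SVF depots, 21 for DFAT against SVF in iWAT and 22 in eWAT. Between DFAT depots 2 were higher and 1 lower in iWAT, between SVF depots 1 higher and 3 lower, for DFAT against SVF 0 higher and 5 lower in iWAT, and 1 higher and 5 lower in eWAT. The shares of all genes, given above, were 8.29% higher and 3.95% lower, 2.94% and 3.94%, 9.91% and 5.18%, and 6.44% and 6.67%. The list's median log2 ratios were 0.09, 0.19, -0.14 and -0.19, against 0.09, 0.05, 0.09 and 0.07 over all genes. Rian had the largest ratio among those at 20 CPM or more in each of the 4 comparisons (1.20, 0.85, -1.07 and -1.42). Airn was 1.96-fold higher in iWAT DFAT than in eWAT DFAT, at 108 and 55.3 CPM, and Peg10, a retrotransposon-derived gene, was lower there at 11.4 against 20.9 CPM. Ndn, a growth suppressor of the melanoma antigen family, was at 91.7 CPM in iWAT SVF against 55.6 CPM in iWAT DFAT. Kcnq1ot1, the noncoding RNA that silences the paternal Cdkn1c copy, lies 162 kb from it; it was at 114 CPM in iWAT DFAT, 101 CPM in eWAT DFAT, 76.7 CPM in iWAT SVF and 59.3 CPM in eWAT SVF cells, lower in both SVF than in both DFAT libraries.

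The insulin-like growth factor axis, into which Igf2, Igf2r and Grb10 feed, was covered by 22 further genes, of which 16, 17, 17 and 18 had 5 CPM or more in the same 4 comparisons. Between DFAT depots 4 were higher and 2 lower in iWAT, between SVF depots 3 higher and 3 lower, and for DFAT against SVF 4 higher and 7 lower in iWAT and 3 higher and 8 lower in eWAT, with medians of 0.25, -0.11, -0.72 and -0.51 against the same medians of all genes. The shares of all genes, higher and lower, were 8.29% and 3.95%, 2.94% and 3.94%, 9.91% and 5.18%, and 6.44% and 6.67% in the same order. The ligand Igf1 was at 15.0 CPM in iWAT DFAT, 21.7 CPM in eWAT DFAT, 75.6 CPM in iWAT SVF and 139 CPM in eWAT SVF cells, higher in both SVF libraries. Its receptor Igf1r ran from 108 CPM in eWAT DFAT to 208 CPM in iWAT SVF.

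The binding proteins that hold these ligands differed in how far they varied. Igfbp7 stayed between 789 and 1363 CPM, while Igfbp2 was at 0.278 CPM in iWAT DFAT, 22.2 CPM in eWAT DFAT, 54.3 CPM in iWAT SVF and 417 CPM in eWAT SVF cells, above in eWAT in both kinds of culture. Igfbp3 did not keep a direction between depots, at 178 against 22.6 CPM in DFAT and 30.9 against 130 CPM in SVF cells. Igfbp4 (38.0, 31.6, 257 and 333 CPM) and Pappa, the protease that cleaves it (6.45, 7.096, 73.2 and 80.5 CPM), were both lower in DFAT cells of both depots. Stc1, an inhibitor of Pappa, was at 36.9 CPM in iWAT DFAT, 8.73 CPM in eWAT DFAT and 1.81 and 2.80 CPM in the SVF libraries. The RNA-binding Igf2bp3 was higher in iWAT in both cultures, at 29.0 against 6.40 and 30.5 against 7.43 CPM, and Igfbp5 was at 25.4 CPM in iWAT SVF against 3.48 CPM in eWAT SVF. Hmga2, a chromatin protein of embryonic growth, was at 253 CPM in iWAT DFAT, 530 CPM in eWAT DFAT, 171 CPM in iWAT SVF and 44.1 CPM in eWAT SVF cells.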

How the data were processed

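Single cell RNA-sequencing libraries were made with 10x Genomics 3′ chemistry from live (7-AAD negative) sorted cells, 1 library each of iWAT DFAT, eWAT DFAT, iWAT SVF and eWAT SVF cultures. The deposited files hold raw UMI counts of every droplet, made by the authors with Cell Ranger on mm10 with introns included (version 7.0.0 per the labels, while the file headers name other versions, as given above), before their removal of ambient RNA, doublets and low-quality cells. Groups came from the sample labels. Cells were filtered as stated above, UMIs were summed per library, and CPM with exact Poisson intervals and log2 ratios with exact conditional binomial intervals at the 95% level were computed in Python 3.11.15 with numpy 2.4.6, scipy 1.17.1 and pandas 2.3.3. Ratios need more than 3 UMIs in both groups. There was no test, because each group is 1 library and cells are not replicates. The log2 ratios and their intervals were tested on simulated counts that held counting error only, and the depth after thinning was checked on some cells. The other steps were not part of that simulation.

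The members and gene lists were chosen with earlier results of these data known. Named genes were all members, at most 4 genes of each list per comparison (largest ratio at 20 CPM or more in the higher library) and the 3 most similar genes per member; the further genes of the chromosome 12 domain, Igfbp7, Kcnq1ot1, Igf1, Igf1r, Cdkn1a, Cdkn1b and Malat1 were named after their values were seen. Positions are from GENCODE M21 (mm10), which matched 32235 of the 32285 genes; promoter entries were not used for the other members. Alternatives were other cell limits, scaling, free RNA subtraction and leaving out cells with markers of other types or with cycling markers.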

Additional observations from a re-analysis of the deposited data

Results flagged for a closer look

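Mest differed in direction between depots in the DFAT against SVF comparison, with a log2 ratio of -0.44 in iWAT and of 0.07 in eWAT, a difference of -0.51. The eWAT interval of -0.09 to 0.22 includes 0, and Mest was under 5 CPM in every library. Without cells in any class of other types the eWAT ratio was -0.01, so that the ratios of both depots had the same sign. Grb10 differed in direction between cultures in the comparison of depots, with a log2 ratio of iWAT to eWAT of 0.37 in DFAT and of -0.30 in SVF cells, a difference of 0.66. Mesothelial-marker cells, in which Grb10 was at 448 CPM, made up 478 of the eWAT SVF cells. Without cells in any class of other types the SVF ratio was -0.18. Neither difference was tested, since each value rests on 1 library.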

How the results depend on the processing

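The 40 log2 ratios of members between libraries were recomputed under 9 alternatives. Between 36 and 40 kept their sign, and of 15 ratios past 2-fold with or without the level limit 13 to 15 stayed past it. The largest shift was 2.32 on the log2 scale, for Igf2 in iWAT SVF against eWAT SVF without cells with markers of other types. This left 9 Igf2 UMIs in eWAT SVF. The 1 member past 2-fold between DFAT depots became 2 without cells with markers of other types, with free RNA subtracted at 10% and with no minimum CPM. The 2 members past it in eWAT DFAT against eWAT SVF became 5 with no minimum CPM, where 11.9% of 25126 genes were at least 2-fold lower, and 3 of 6 as a mean of CPM over cells, where Dlk1 reached 5.34 CPM. The 4 in iWAT DFAT against iWAT SVF became 5 with scaling by the median of ratios, through Meg3. The 1 member past it in dividing cells of eWAT DFAT became 0 without cells of other types, an alternative added after the data were seen, because Cdkn1c was then under 5 CPM. With no minimum CPM but more than 3 UMIs in both kinds of cells, also added, it became 2, and the 0 members past it in each SVF library became 1 in iWAT SVF and 1 in eWAT SVF. The Igf2 ratio of eWAT DFAT to eWAT SVF went from -1.61 to 0.45 without cells of other types. The 0.45 rests on 12 and 9 UMIs with overlapping intervals, so no reversal is read from it. In cells with no cycling marker the Cdkn1c ratio was -0.24 between DFAT depots (0.93 in all cells) and 0.64 for eWAT DFAT against eWAT SVF (-0.37 in all cells). Without cells of other types as well, Cdkn1c was at 8.23 CPM in iWAT DFAT, 4.89 in eWAT DFAT and 5.30 in eWAT SVF. Neither reversal was then seen, and the cause was not tested. Scaling by the median of ratios moved the median of all genes from 0.05 to -0.06 for iWAT SVF against eWAT SVF and from 0.07 to -0.11 for eWAT DFAT against eWAT SVF. The members' median in that last comparison was -0.90 without cells of other types, -0.85 as a mean of CPM over cells and -0.12 in cells with no cycling marker, against -0.46.

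No paired analysis was possible because each group holds 1 library and the labels give no replicate numbers. Igf2, H19 in the eWAT libraries and Mest rest on few UMIs, so that changes of their level within the intervals were not detectable at this depth. Intervals cover counting error only and say nothing of animals or cultures.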

Other observations

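In each library the 10% of cells with the lowest Malat1 share, which carry little of this nuclear RNA, was set against the rest. Meg3 was lower in these cells, at 141 against 264 CPM in iWAT DFAT, 39.1 against 112 CPM in eWAT DFAT, 100 against 534 CPM in iWAT SVF and 39.9 against 368 CPM in eWAT SVF. Airn had log2 ratios of -1.10, -1.70, -2.90 and -3.28, and Kcnq1ot1 of -1.76, -2.89, -4.55 and -4.02. Igf2r was lower at -0.56 to -1.25. Ndn, whose protein-coding RNA is a single exon, was higher in all 4, at 0.37 to 0.60. Cdkn1c was higher in the iWAT libraries (0.57 in DFAT and 0.76 in SVF) and lower in the eWAT libraries (-0.95 and -0.27), and Dlk1 had the same signs (0.56 and 0.76, then -0.47 and -0.72), although the intervals of Cdkn1c in eWAT SVF and of Dlk1 in eWAT DFAT include 0. H19 was higher in iWAT SVF, at 8.60 against 4.77 CPM. What sets these cells apart was not tested.

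In iWAT SVF, the 421 cells with a Dlk1 UMI after thinning held H19 at 28.5 CPM (60 UMIs) against 5.20 CPM (182 UMIs) in the other 7003 cells, and Cdkn1c at 115 against 69.6 CPM. The 60 UMIs lay in 25 of the 421 cells (5.94%, against 1.78% of the others). In the other 3 libraries the 104, 61 and 135 cells with a Dlk1 UMI held 0 H19 UMIs, which allows shares of up to 2.88%, 4.92% and 2.22% in iWAT DFAT, eWAT DFAT and eWAT SVF, above the 0.478%, 0.0781% and 0.212% of the cells without one. Cdkn1c in cells with and without a Dlk1 UMI was at 25 against 8.56 CPM in iWAT DFAT, from 13 UMIs in the former, at 3.28 against 4.62 CPM in eWAT DFAT, from 1 UMI, and at 8.89 against 5.99 CPM in eWAT SVF, from 6 UMIs. In the 150 iWAT SVF cells with an H19 UMI, Cdkn1c was at 72.0 CPM against 72.2 CPM in the rest, and in the 36 such cells of iWAT DFAT at 16.7 against 8.74 CPM, from 3 UMIs in the former.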
